A study of Mus musculus with 23 samples.

Results

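A list of 42 genes of DNA repair and of the DNA damage checkpoint was followed through mouse proximal small intestine after doxorubicin, fasting and refeeding, in wild-type and Ddit4 knockout animals. Members were taken by gene symbol from the normalized count table, and a member was tested where its mean over 23 libraries was at least 10 normalized reads. Of the 42 genes, 37 met that minimum, against 11939 of the 16259 genes in the table. The other 5 were Rad51b (mean 4.22), Fanci (4.62), Xrcc2 (7.95), Rad51c (9.04) and Fancd2 (9.95), and the member just inside the minimum was Palb2 (11.7). Fancd2, whose ubiquitinated protein marks stalled forks, had 39.4 normalized reads in the fasted knockout library and at most 23.2 in any other, which was too few reads for a test.

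Libraries came from whole tissue of mice labelled male, 12 wild type and 11 Ddit4-/-. The untreated groups were fed ad libitum (0 h), fasted for 24 h (0 h), or fasted and then refed for 2 or 6 h, each with both genotypes. Doxorubicin was given intraperitoneally at 20 mg/kg to mice fed ad libitum or to mice that had been fasted for 24 h and were refed afterwards (called prefasted), and tissue was taken 2, 6, 12 or 24 h later. The knockout library of ad libitum mice 2 h after doxorubicin was not analysed here. With 1 library for each combination of genotype, feeding, drug and time, both genotypes of a condition served as its pair of replicates. A p-value therefore covers the scatter among single libraries and no more, and nothing in the labels says how many mice each library holds, their age or strain, or whether Ddit4 was lost in every cell. Ad libitum mice without drug were taken at 0 h only, so in those mice the drug and the hours after 0 h cannot be told apart.

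Cells meet a broken DNA end with a sensor complex (Mre11a, Rad50, Nbn), the kinases Atm and Atr and their targets Chek1 and Chek2, which halt the cell cycle. Breaks are then joined end to end, where the Ku proteins encoded by Xrcc5 and Xrcc6 bind first, or copied from the sister chromatid by homologous recombination, which needs Brca1, Brca2 and Rad54l. Doxorubicin traps topoisomerase II on cut DNA, and in the intestine the dividing cells of the crypt are its best-known target. Many recombination and replication-linked repair genes are transcribed mainly in S and G2 phase, so in bulk tissue their level also depends on how many cells divide.

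Upstream sequences are shown for 5 of the members named in the results below, each of which held a marked match. Xrcc6, Chek2, Msh6 and Rad54l had levels that went with those of proliferation genes over the libraries, and Usp28 was the only member with a negative r past the threshold, though its rank correlation did not pass. Sequences are from RefSeq (GRCm38.p6), 5′ to 3′ on the gene's strand, and capitals mark the E2F consensus (TTTGGCGC, TTTCGCGC, TTTCCCGC or TTTGCCGC) or the CCAAT box, read on either strand. Only stretches of the 250 upstream bases that lie in no annotated exon are printed, at chr5:110839778-110839978 (Chek2, + strand), chr17:87974800-87975049 (Msh6, + strand), chr4:116123691-116123839 (Rad54l, - strand) and chr9:48985135-48985374 (Usp28, + strand). For Xrcc6 the whole window lies within annotated exons, so only 30 bases around the match are printed (chr15:82016312-82016341, + strand).
Xrcc6: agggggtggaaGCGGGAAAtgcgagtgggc
Chek2: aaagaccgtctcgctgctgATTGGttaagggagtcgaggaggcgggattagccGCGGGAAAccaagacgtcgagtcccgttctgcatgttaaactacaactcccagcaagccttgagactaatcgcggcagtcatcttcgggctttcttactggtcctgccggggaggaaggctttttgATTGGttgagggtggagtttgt
Msh6: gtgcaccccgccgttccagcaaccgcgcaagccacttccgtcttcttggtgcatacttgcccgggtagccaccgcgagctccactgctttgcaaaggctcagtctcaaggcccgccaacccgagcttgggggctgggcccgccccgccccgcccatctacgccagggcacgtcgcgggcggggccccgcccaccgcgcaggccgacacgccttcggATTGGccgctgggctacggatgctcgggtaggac
Rad54l: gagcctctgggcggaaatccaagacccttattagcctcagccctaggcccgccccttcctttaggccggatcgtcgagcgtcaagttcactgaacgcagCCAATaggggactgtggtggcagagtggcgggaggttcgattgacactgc
Usp28: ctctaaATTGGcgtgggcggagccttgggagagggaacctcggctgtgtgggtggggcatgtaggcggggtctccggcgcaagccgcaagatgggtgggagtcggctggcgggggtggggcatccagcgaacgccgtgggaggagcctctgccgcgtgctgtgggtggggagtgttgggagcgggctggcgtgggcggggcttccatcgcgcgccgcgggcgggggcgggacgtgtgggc
Xrcc6 and Chek2 each held 1 E2F match, Chek2 held 2 CCAAT boxes besides, and Msh6, Rad54l and Usp28 held 1 CCAAT box each. Among members not shown, Parp1, Tdp1 and Lig1, whose levels also went with those of proliferation genes, held neither motif. Brca1 and Xrcc1, whose r passed too, held a CCAAT box. Trp53bp1 and Lig3, which passed the threshold in a comparison, held neither. Of the 33 members with a sequence in the table, 4 held an E2F match within 250 upstream bases (Bard1, Brca2, Chek2 and Xrcc6), or 12.1%, against 2.16% of 27025 genes. A CCAAT box was held by 16 of 33 members, or 48.5%, against 37.5% of genes. A forkhead motif (TGTTTAC, either strand) was held by 1 member, Brca2, which is 3.03% against 3.54%. A match is a description of letters, and the motifs do not overlap each other here.

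Depth ranged from 11418115 to 23428519 reads per library (median 15524351), and 1 read stood for 0.705 to 1.67 normalized reads. Ddit4 stood at 66.9 to 414 normalized reads in wild-type and at 0 to 11.3 in knockout libraries. All 9 enterocyte markers were present in the table, with a summed level of 834681 to 1674032 normalized reads. Pancreatic acinar markers (7 of 8 listed genes, those with a mean of at least 10) summed to 63214 in the fasted knockout library. They summed to 167903 in the wild-type library refed for 6 h without drug, against 126 to 2926 in the others. The fasted knockout library also had the highest summed B cell markers (551, over 3 of 4 listed genes). The untreated knockout libraries of ad libitum, fasted and 2 h refed mice, 3 in all, held at most 5 reads of Y-linked genes, against 1088 or more in the other 20, although all are labelled male. For the 4 wild-type prefasted doxorubicin libraries the titles read untreated, against their treatment labels, which were followed here.

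The members differed widely in abundance. Per kilobase of exon, Tdp2, the phosphodiesterase that frees DNA ends from trapped topoisomerase II, stood far above the rest at 472 normalized reads per kb, followed by the damage-recognition gene Xpa (115) and the sensor subunit Nbn (67.9). On the same scale the end-joining genes lay between 6.59 (Prkdc, the DNA-dependent kinase) and 42.2 (Lig4, the end-joining ligase), and the 4 genes of single-strand break repair and ligation between 17.5 (Parp1) and 51.0 (Lig1). Homologous recombination genes lay mostly lower, from 1.12 (Rad51b) to 16.6 (Xrcc3), with Rad51d at 43.6. The checkpoint kinases stood at 1.38 (Atr), 2.59 (Atm), 3.86 (Chek1) and 22 (Chek2) normalized reads per kb. Low members carry few reads, which widens their errors: the standard error of a log2 difference between 2 conditions ranged from 0.23 to 1.22 over the 37 members, with a median of 0.43.

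**Figure D1:**
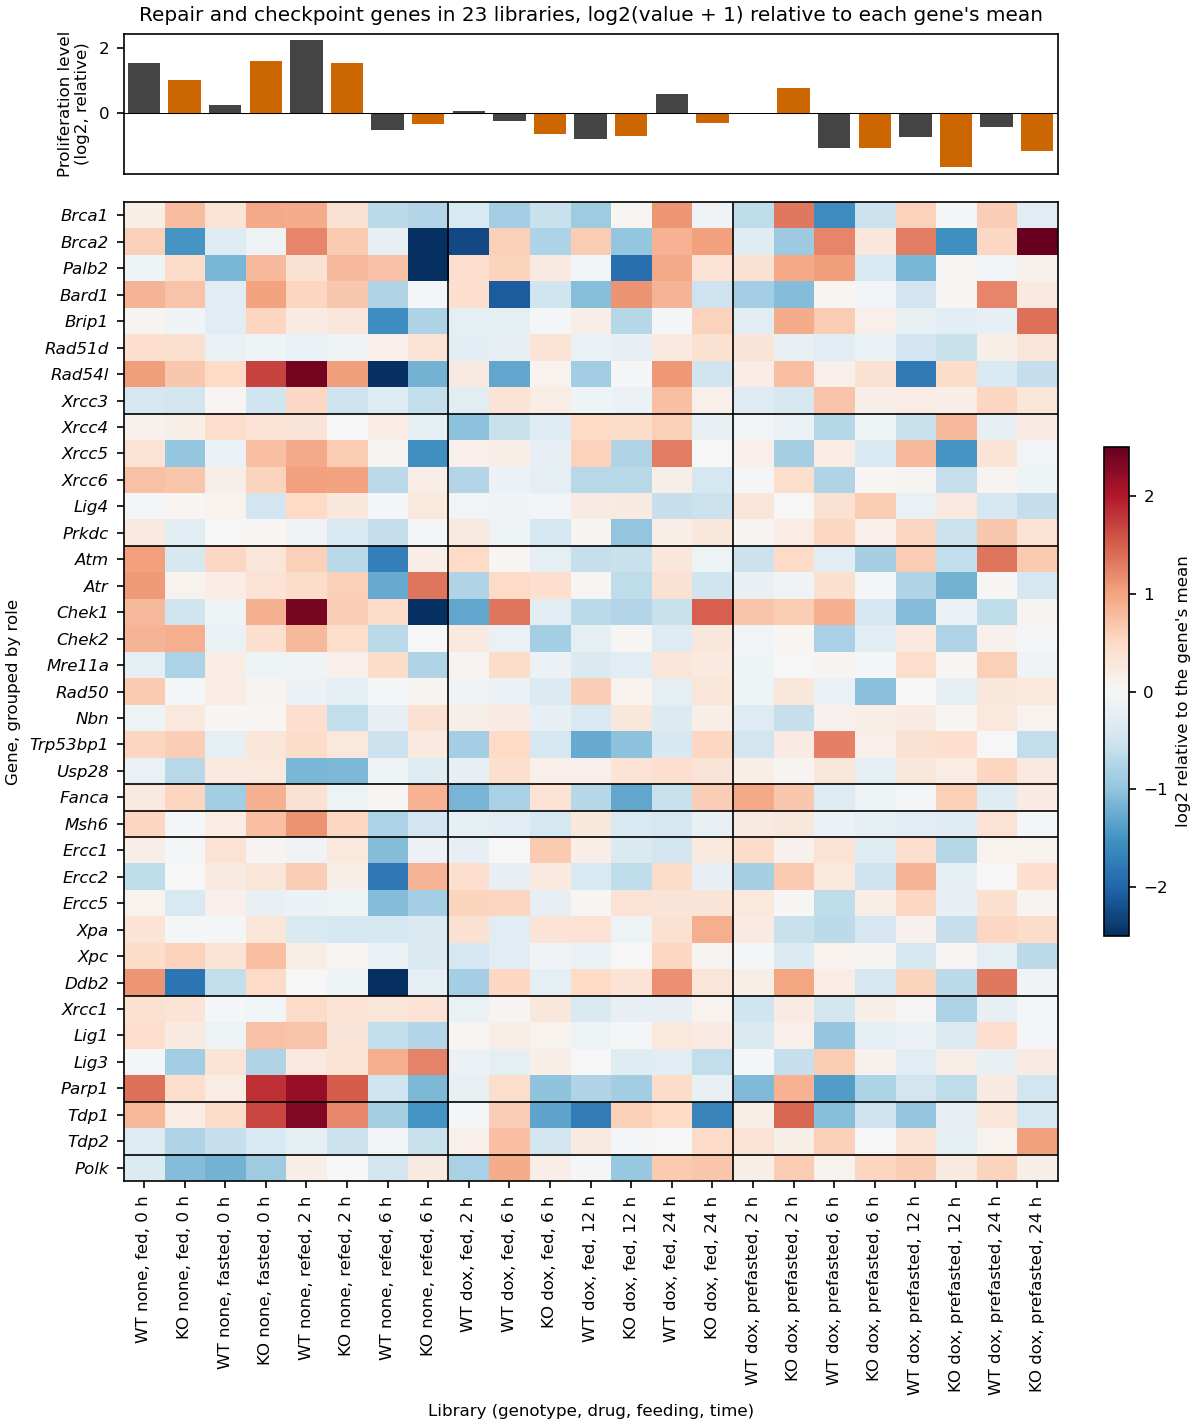
Log2(value + 1) of the 37 tested genes in 23 libraries, relative to each gene's mean, with rows grouped by role and columns by drug, feeding and time. Bars show the mean log2 level of 12 proliferation genes relative to all libraries (dark, wild type; orange, knockout), which ranged from -1.66 to 2.25.

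The first comparison asked how the members changed after doxorubicin in ad libitum mice, against the untreated pair at 0 h. At 12 h, Xrcc6 and Trp53bp1 fell and no member rose, 2 of 37 beside 9.00% of all genes tested (4.21% fell). At an unadjusted p under 0.05 there were 9 members, beside 24.9% of all genes. edgeR called Xrcc6 alone at 12 h, and DESeq2 called Xrcc6, Trp53bp1 and Parp1 (log2 difference -1.80, adjusted p = 0.0425; limma, -1.72 ± 0.66, adjusted p = 0.116). At 6 h none passed by limma, beside 1.34% of all genes, with 6 members at an unadjusted p under 0.05 (14.8% of all genes) and none by edgeR or DESeq2. At 24 h none passed by limma, beside 3.11% of all genes, with 7 members at an unadjusted p under 0.05 (19% of all genes), none by edgeR and 1, Usp28, by DESeq2. At these 3 times the members' share of calls was no higher than that of all genes. The median log2 difference of the members was -0.13 at 6 h, -0.30 at 12 h and -0.10 at 24 h, against 0.00, -0.01 and 0.02 for all genes.

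Xrcc6 encodes Ku70, which binds broken ends together with the Xrcc5 product. It stood at 284 normalized reads in the untreated wild-type library and 274 in the knockout, and at 104 in both libraries 12 h after doxorubicin. In the other ad libitum drug libraries it stood at 102 (wild type, 2 h), 153 and 145 (6 h), and 186 and 124 (24 h), so all 7 lay below both untreated ad libitum ones. In prefasted mice it stood at 163 and 231 with the drug and at 345 and 342 without it at 2 h. At 6 h the prefasted values were close, at 100 and 174 with the drug and 105 and 189 without it. In ad libitum mice the log2 difference at 12 h was -1.42 ± 0.34 (SE), a 2.67-fold fall (limma, adjusted p = 0.0181), and at 6 and 24 h it was -0.90 ± 0.34 and -0.87 ± 0.34 (adjusted p = 0.225 and 0.17). Leaving out the 3 libraries with almost no Y-linked reads gave a log2 difference of -1.48, with an adjusted p of 0.167 by limma.

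Trp53bp1 encodes 53BP1, which shields broken ends from resection and steers them to end joining. Its value was 71.4 in the untreated wild-type and 75.6 in the untreated knockout library, and 19.7 and 23.4 at 12 h, a log2 difference of -1.73 ± 0.51 and a 3.31-fold fall (limma, adjusted p = 0.0446). At 6 h the wild type stood at 69.6 and the knockout at 35.8, and at 24 h the order was reversed, at 36.8 and 70.5. Leaving out the same 3 libraries gave -1.69 (adjusted p = 0.287), and edgeR gave an adjusted p of 0.0603. Reads of Trp53bp1 and of Tubgcp4 cannot be told apart over 15% of its exonic bases, since the genes overlap on opposite strands and the libraries carry no strand, and Tubgcp4 had a log2 difference of 0.18 ± 0.33. For Xrcc6, 7.69% of exonic bases are shared in the same way with Desi1 (-0.31 ± 0.24).

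Both calls at 12 h rest on all 4 of their libraries: leaving out either untreated ad libitum library or either 12 h library left no member past the threshold. Trp53bp1 also missed it without either fasted library (limma, adjusted p = 0.0505 and 0.0507) or either untreated library refed for 2 h (0.0605 and 0.0603), none of which belongs to either side of the comparison. Markers of dividing cells were lower in the same libraries. Of 12 proliferation genes, 1 fell at 6 h, 5 at 12 h and none at 24 h (limma; 6 at an unadjusted p under 0.05, none by edgeR and 2 by DESeq2), with median log2 differences of -1.70, -2.03 and -1.32. Over all genes, limma called 1.34%, 9.00% and 3.11% in either direction at these times. Mki67, a marker of cycling cells, stood at 400 and 235 without drug and at 98.6 and 63.6 at 12 h. The part of dividing cells in the fall of Xrcc6 and Trp53bp1 was not tested. Over all 23 libraries, Pearson's r with the mean log2 level of the 12 proliferation genes was 0.82 for Xrcc6. For Trp53bp1 r was 0.24 and did not pass (permutation test, adjusted p = 0.419). In whole tissue fewer cells of a type cannot be told apart from less RNA per cell. The level of 5 crypt stem cell markers, relative to its mean over all libraries, was 1.73 and 0.81 on the log2 scale without drug and -0.80 and -1.68 at 12 h.

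Among members of the checkpoint, Chek2 stood at 113 and 117 without drug, at 55 and 34.2 at 6 h, at 52.6 and 63.6 at 12 h and at 49.8 and 75.5 at 24 h. All 6 values after the drug were below both untreated ones, yet the log2 difference of -1.39 ± 0.43 at 6 h missed the threshold (limma, adjusted p = 0.129). Chek1 and Atm, at 4.76 to 38.8 and 15.8 to 34.2 in these drug libraries, did not pass either. Of the 9 tested members known to be highest in S and G2 phase, 8 had a negative difference at 12 h, with a median of -0.76, and none passed (limma, 1 at an unadjusted p under 0.05, none by edgeR or DESeq2). Among them Brca1, which promotes homologous recombination, stood at 39.7 and 61.0 without drug and at 18.4 and 36.5 at 12 h. Lig1, the ligase of replication, stood at 285 and 244 without drug and at 192 and 206 at 12 h.

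Known p53 targets among the members were Ddb2 and Xpc, which recognise bulky lesions, and Polk, a polymerase that copies past them (3 genes). None of the 3 passed at 6, 12 or 24 h (limma, 2, 1 and 1 at an unadjusted p under 0.05, none by edgeR or DESeq2). Polk stood at 34.7 and 20.3 without drug, 85.3 and 49.7 at 6 h, 43.4 and 22.4 at 12 h and 70.3 and 72.6 at 24 h. The 6 h and 24 h values lay above both untreated ones and the 12 h values did not, and the log2 difference at 24 h was 1.39 ± 0.47 (limma, adjusted p = 0.114). Xpc went the other way, from 189 and 205 without drug to 112 and 129 at 6 h, with a log2 difference of -0.71 ± 0.28 (adjusted p = 0.243). Ddb2 was at 32.7 and 3.39 without drug and between 12.2 and 33.55 at 6 to 24 h, so the groups overlapped, and 23.8% of its exonic bases overlap Acp2.

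Other genes of the p53 response were called in the same libraries. Ccng1, a cyclin that p53 induces, rose from 924 and 1010 to 1820 and 1739 at 6 h (log2 difference 0.88 ± 0.15, limma, adjusted p = 0.0111). Cdkn1a, the p21 cell cycle inhibitor, had a log2 difference of 0.78 ± 0.19 at 12 h (limma, adjusted p = 0.0173). Phlda3, an Akt inhibitor, had one of 4.60 ± 1.07 at 24 h (limma, adjusted p = 0.0297). It went from 0.99 and 16.9 to 144 and 143, so the size of the difference depends on the added 1. Without drug Phlda3 also stood at 129 and 87.1 in mice refed for 2 h, and at 0 to 18.8 in the other untreated libraries. Of 20 p53 targets, 1 rose at 6 h, 3 at 12 h and 3 at 24 h, and none fell. Of all genes, 1.34%, 9.00% and 3.11% were called in either direction at these times.

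Usp28 encodes a deubiquitinase that binds 53BP1 and is known for stabilising MYC. It stood at 172 and 119 in untreated ad libitum mice, 253 and 210 at 6 h, 209 and 243 at 12 h and 258 and 242 at 24 h. All 6 drug values exceeded both untreated ones, with log2 differences of 0.69 ± 0.23, 0.66 ± 0.23 and 0.80 ± 0.23, but none passed (limma, adjusted p = 0.167, 0.0868 and 0.0712). DESeq2 called the 24 h difference (adjusted p = 0.0301). The wild-type library at 2 h, at 166, lay between the untreated values.

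**Figure D2:**
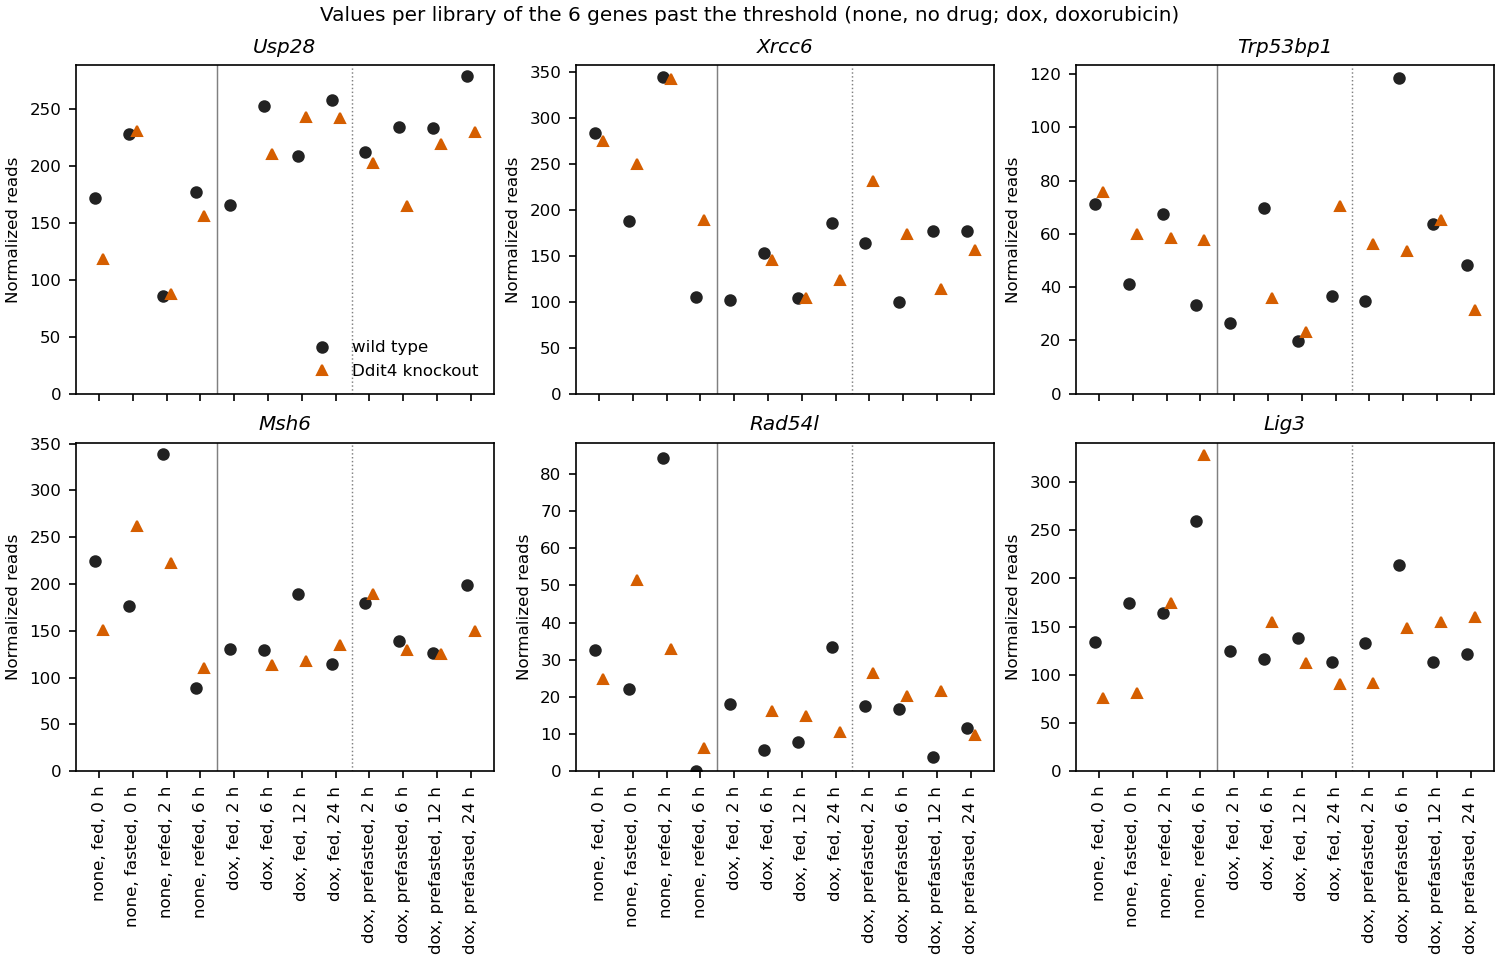
Normalized reads of the 6 genes that passed the threshold in any comparison, by condition, with wild type as circles and Ddit4 knockout as triangles. Usp28 is lowest in the 2 untreated libraries refed for 2 h (86.0 and 87.1), and Xrcc6 is lower in the ad libitum drug libraries than in both untreated ad libitum ones.

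In prefasted mice the drug was compared with untreated mice refed for the same time, at 2 and 6 h. No member passed at 2 h (0.0335% of all genes), at 6 h (0% of all genes) or over the mean of both times (0.628% of all genes). At an unadjusted p under 0.05 there were 3, 5 and 7 members by limma, beside 11.4%, 12.1% and 15.2% of all genes. edgeR called 0, 0 and 1, and DESeq2 called 1, 0 and 1. The one member so called was Usp28 in each case.

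Usp28 stood at 212 (wild type) and 202 (knockout) 2 h after doxorubicin, against 86.0 and 87.1 in untreated mice refed for 2 h. At 6 h it stood at 234 and 165 against 177 and 156. It was higher with the drug in 4 of 4 pairs, with a log2 difference of 1.25 ± 0.23 at 2 h (limma, adjusted p = 0.0568) and 0.74 ± 0.16 over both times (adjusted p = 0.0508). Over both times the adjusted p was 0.0444 by edgeR and 0.00487 by DESeq2. Over 11 other settings the adjusted p ranged from 0.00487 to 0.293, the last without the 4 libraries of conflicting title, which include both wild-type drug libraries of this comparison. Leaving out the untreated wild-type library refed for 6 h gave 0.0459 at 2 h and over both times (limma). Leaving out the untreated knockout library refed for 6 h gave 0.0462 at 2 h, and leaving out the knockout drug library at 6 h gave 0.0427 over both times. In the other 21 of 23 such fits it did not pass, with an adjusted p of up to 0.378 at 2 h and 0.179 over both times, and other settings gave up to 0.433 at 2 h.

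Tdp2, which acts on the lesion that doxorubicin leaves, stood at 1887 and 1638 at 2 h and 2235 and 1472 at 6 h with the drug. Without it the values were 1259 and 1018 at 2 h and 1414 and 1008 at 6 h. The groups did not overlap and all 4 pairs were higher, with a log2 difference of 0.62 ± 0.24, but the adjusted p was 0.242 (limma). Tdp1, which clears topoisomerase I adducts, stood at 17.5 and 44.2 with the drug and 82.3 and 37.6 without it at 2 h, so the genotypes differed in direction.

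Parp1, the sensor of single-strand breaks, stood at 32.7 and 131 with the drug and 327 and 205 without it at 2 h. Its log2 difference of -1.97 ± 0.66 had an adjusted p of 0.265 (limma). At 6 h the values were 26.5 and 40.6 with the drug against 50.2 and 32.0 without it. Rad54l, a motor protein of recombination, stood at 16.7 and 20.3 with the drug at 6 h against 0 and 6.14 without it (adjusted p = 0.248), and the untreated value of 0 came from the wild-type library with pancreatic transcripts. Of 12 proliferation genes none passed (limma, 8 and 2 at an unadjusted p under 0.05, none by edgeR or DESeq2), with median log2 differences of -1.57 at 2 h and -0.48 at 6 h.

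The time after the drug was also compared within each feeding group. Between 24 and 6 h in ad libitum mice no member passed (0% of all genes; limma, none at an unadjusted p under 0.05, beside 7.12% of all genes, and none by edgeR or DESeq2). The difference was positive for 29 of 37, among them all 8 tested homologous recombination genes (median 0.66, against 0.02 for all genes). The 2 genotypes did not both rise for each of these genes. In the knockout Bard1 (12.2 to 12.0), Rad54l (16.3 to 10.6) and Xrcc3 (49.66 to 47.95) were lower at 24 h, and the others were higher. In the wild type Bard1 went from 3.37, which was 3 reads, to 32.5, and Rad54l from 5.61 to 33.55. Brca1 stood at 19.1 and 23.6 at 6 h and at 76.8 and 33.1 at 24 h. In prefasted mice, 12 and 24 h against 2 and 6 h, no member passed (0.0921% of all genes). There limma gave 1 member at an unadjusted p under 0.05 (10.9% of all genes), Lig4 (-0.57 ± 0.17, adjusted p = 0.243), and edgeR and DESeq2 none.

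Feeding before the drug was tested in 7 pairs of drug-treated libraries matched on genotype and time. No member passed between prefasted and ad libitum mice (0% of all genes; limma, 1 member at an unadjusted p under 0.05, beside 6.42% of all genes, and none by edgeR or DESeq2). That member was Xpa, at 211 ± 69.2 prefasted and 262 ± 71.2 ad libitum (SD, n = 7), lower in 6 of 7 pairs with a log2 difference of -0.34 ± 0.13 (adjusted p = 0.754). The 95% interval lay within a 2-fold change for 29 of 37 members and within a 4-fold change for all 37. For Usp28 it ran from -0.29 to 0.27, for Tdp2 from -0.07 to 0.38, for Xrcc6 from -0.18 to 0.60 and for Xpc from -0.51 to 0.29 on the log2 scale.

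Intervals were wider for the low members of recombination and the checkpoint: Brca1 (-0.72 to 0.65), Rad54l (-1.01 to 0.92), Chek1 (-1.02 to 1.04) and Atm (-0.64 to 0.94). Prkdc and Trp53bp1 were higher in the prefasted library of 6 of 7 pairs, by 0.36 ± 0.18 and 0.58 ± 0.32 (both adjusted p = 0.754). Split by time, no member passed early (0.00838% of all genes) or late (0% of all genes), and none passed in the difference between late and early (0% of all genes). At an unadjusted p under 0.05 limma gave 2, 0 and 2 members there, beside 10.6%, 3% and 5.62% of all genes, and edgeR and DESeq2 none. The 2 early ones were ligases in opposite directions: Lig1, at -0.62 ± 0.22, and Lig4, at 0.51 ± 0.20 (adjusted p = 0.4 and 0.43).

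Without drug, fasted mice were compared with ad libitum mice, and refed mice with fasted ones. After fasting no member passed (0.343% of all genes; limma, 2 members at an unadjusted p under 0.05, beside 7.06% of all genes, and none by edgeR or DESeq2). After 2 h of refeeding 1 member, Usp28, fell, beside 0.251% of all genes called (0.109% fell). After 6 h Rad54l and Msh6 fell and Lig3 rose, 3 of 37 beside 7.02% of all genes (3.46% fell and 3.56% rose). At an unadjusted p under 0.05 there were 3 members at 2 h and 9 at 6 h, beside 8.67% and 25.1% of all genes.

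Usp28 stood at 228 and 231 in the fasted pair, at 86.0 and 87.1 after 2 h of refeeding and at 177 and 156 after 6 h. The log2 difference at 2 h was -1.40 ± 0.23, a 2.63-fold fall (limma, adjusted p = 0.017), and edgeR and DESeq2 called it too. Those 2 libraries were the lowest of 23, and the other 21 lay between 119 and 279. The call needed all 4 libraries of the comparison (adjusted p from 0.0942 to 0.249 without 1 of them), and it was lost when the 3 libraries with almost no Y-linked reads were set aside (log2 difference -1.40, adjusted p = 0.528) or without the 2 with pancreatic transcripts (-1.30, adjusted p = 0.131). The drug comparison of prefasted mice at 2 h uses the same low pair of libraries, so the 2 values are not independent.

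Msh6, which recognises mismatched bases behind the replication fork, stood at 177 and 262 in fasted mice and at 88.6 and 111 after 6 h of refeeding. The log2 difference was -1.11 ± 0.31 (limma, adjusted p = 0.0417). Rad54l stood at 22.1 and 51.6 in fasted mice and at 0 and 6.14 after 6 h, a difference of -3.70 ± 0.96 on the log2(value + 1) scale (adjusted p = 0.0317), whose size depends on the added 1. Its overlap partner Lrrc41, which shares 15.4% of its exonic bases, had a log2 difference of 0.55 ± 0.26. Lig3, the ligase of single-strand break repair, was at 174 and 81.6 in fasted mice and at 259 and 328 after 6 h, the 2 highest values of 23, with a log2 difference of 1.28 ± 0.37 (adjusted p = 0.0482). It shares 25.1% of exonic bases with Rffl, whose difference was 0.02 ± 0.36.

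Each of these 3 calls at 6 h includes both libraries with pancreatic transcripts, 1 on either side. Without those 2 libraries, which leaves 1 library a side, the log2 differences were -0.42 for Msh6, -1.89 for Rad54l and 1.04 for Lig3, and none passed. None passed either without the fasted knockout library alone (limma, adjusted p = 0.402, 0.251 and 0.448), or without the 3 that have almost no Y-linked reads (log2 differences of -0.78, -3.51 and 0.75). Without the wild-type library refed for 6 h, Msh6 and Rad54l no longer passed (adjusted p = 0.155 and 0.157). Rad54l missed without the wild-type fasted library (0.0645), and Lig3 without the knockout library refed for 6 h (0.199). Leaving out either untreated library refed for 2 h, or any ad libitum drug library at 6 or 24 h, left Rad54l as the only one of the 3 (adjusted p of Msh6 from 0.0507 to 0.0536). Lig3 also missed, at 0.051 to 0.0619, without either untreated ad libitum library, either ad libitum drug library at 12 h or either prefasted drug library at 2 h. With TMM factors Lig3 missed (0.0505), and without the 4 libraries of conflicting title Msh6 did (0.0571). edgeR called Msh6 alone, and DESeq2 all 3 with Lig1 and Parp1. In the same comparison 1 of 12 proliferation genes fell, beside 3.46% of all genes, and the median of the 12 was -1.50. The 9 tested members of S and G2 phase had a median of -1.29, against -0.05 for all genes.

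**Figure D3:**
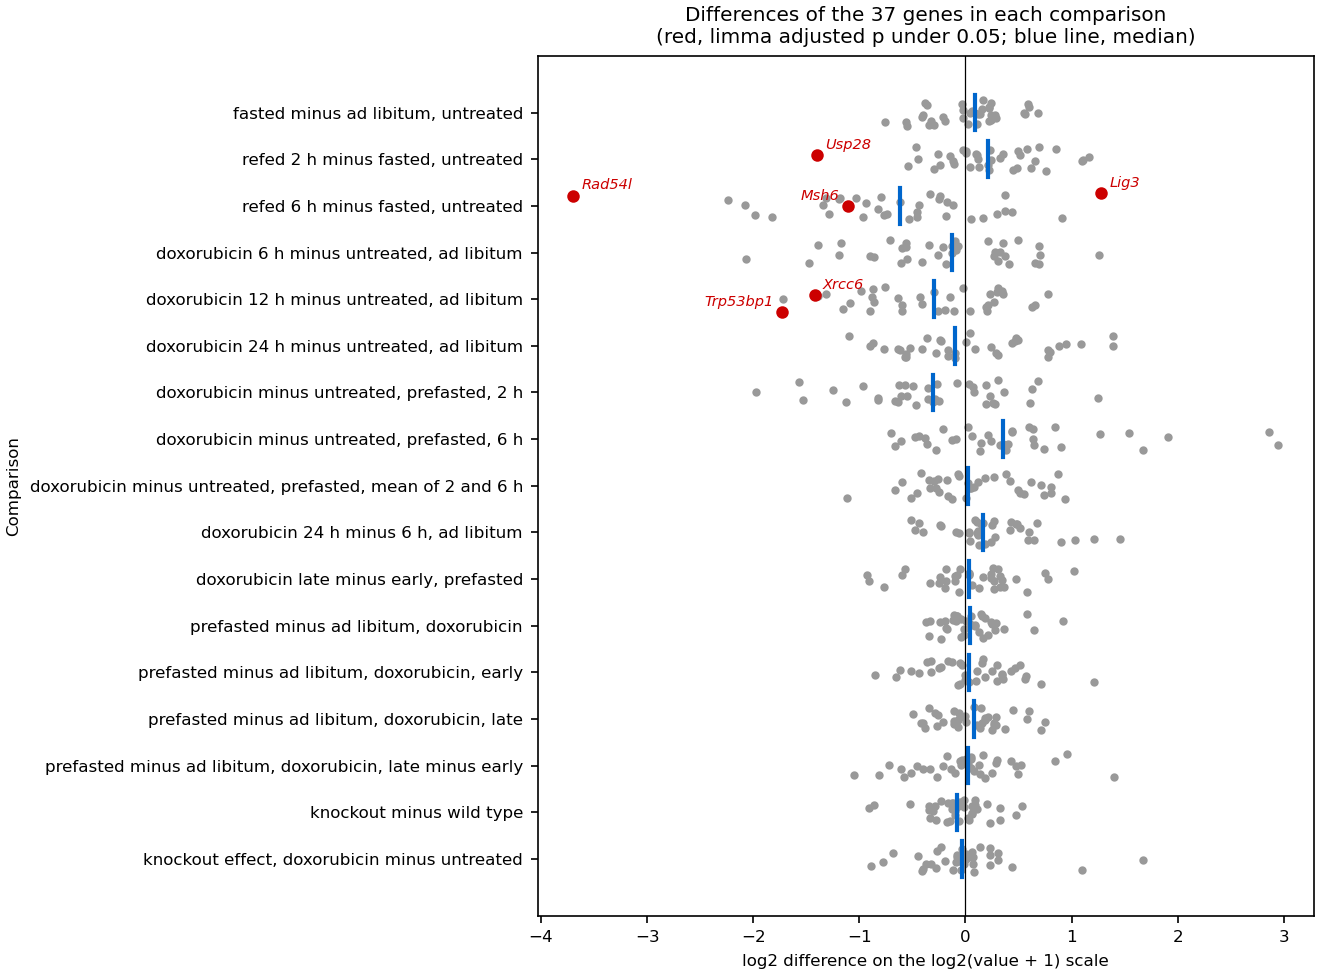
Log2 differences of the 37 genes in each of the 17 comparisons, on the log2(value + 1) scale, 1 point per gene, with the median as a blue line. Red points passed an adjusted p of 0.05 by limma: Usp28 at 2 h of refeeding, Rad54l, Msh6 and Lig3 at 6 h, and Xrcc6 and Trp53bp1 12 h after doxorubicin.

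Loss of Ddit4, an inhibitor of mTORC1 that stress induces, gave no member past the threshold over 11 pairs of libraries (0.578% of all genes; limma, 2 members at an unadjusted p under 0.05, beside 12.0% of all genes, none by edgeR and 1 by DESeq2). Xrcc5, which encodes the Ku80 partner of Ku70, came closest. It ranged from 65.5 to 180 normalized reads in the 12 wild-type libraries (median 88.4) and from 24.6 to 125 in the 11 knockout libraries (median 56.1). The ranges overlapped, but the knockout was lower in 10 of 11 pairs, with a log2 difference of -0.86 ± 0.23 (limma, adjusted p = 0.116; DESeq2, adjusted p = 0.0192; edgeR, adjusted p = 0.15). The exception was the fasted pair, at 65.5 in the wild type and 125 in the knockout library with pancreatic and B cell transcripts. Without that knockout library the log2 difference was -1.04 and the adjusted p 0.0375, and without its wild-type partner 0.0372 (limma). These were the only 2 of 23 fits without 1 library in which it passed, and in the others the adjusted p reached 0.23. Over 13 other settings 1 passed (DESeq2), with log2 differences from -1.10 to -0.58 and an adjusted p of up to 0.892.

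Xrcc6, the partner of Xrcc5, had a log2 difference between genotypes of 0.09 ± 0.15 (95% interval -0.22 to 0.40). Xrcc3, a gene of homologous recombination, was lower in the knockout of 11 of 11 pairs, by -0.34 ± 0.17 on the log2 scale (adjusted p = 0.449). Mre11a was the other member at an unadjusted p under 0.05, at -0.33 ± 0.14 and lower in 8 of 11 pairs (adjusted p = 0.36). The 95% interval of the genotype difference lay within 2-fold for 29 of 37 members and within 4-fold for 36. For the difference of the knockout effect between drug-treated and untreated mice no member passed (0% of all genes; limma, none at an unadjusted p under 0.05, beside 4.16% of all genes, and none by edgeR or DESeq2), and 15 of 37 intervals lay within 2-fold. In untreated ad libitum, fasted and 2 h refed mice the knockout library is one with almost no Y-linked reads. In those pairs genotype and that trait cannot be told apart.

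Levels of the members were set against the mean log2 level of the 12 proliferation genes in each library. Over all 23 libraries, Pearson's r passed a permutation test for 11 of 37 members, 10 positive and 1 negative, beside 30.4% of all genes tested. The share of members, 11 of 37, was thus near that of all genes. By Spearman's rho as well 8 passed, beside 26.5% of all genes. With Mki67 alone as the level, 10 passed by r (27.4% of all genes) and 8 by both (22.1%). The highest were Parp1 (r = 0.89, rho = 0.79, permutation p = 1e-05, the smallest that 100000 resamples can give, and 3e-05), Xrcc6 (r = 0.82, rho = 0.74), Tdp1 (0.76 and 0.72) and Chek2 (0.74 and 0.68). Msh6 (0.71 and 0.54), Lig1 (0.70 and 0.71), Brca1 (0.63 and 0.59) and Rad54l (0.60 and 0.67) followed. Xrcc1, a scaffold of single-strand break repair (0.55 and 0.48), and Xpc (0.54 and 0.46) passed by r alone. For the first 8, the p of r adjusted over 11939 genes lay between 0.000279 and 0.0131.

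Members known to be highest in S and G2 phase did not all follow the proliferation level. Of 9 tested, 4 passed, and r ranged from -0.02 (Brca2) to 0.71 (Msh6) with a median of 0.39. Of the other 28, 7 passed, with a median of 0.16. Chek1 had an r of 0.39 and a permutation p of 0.0687. Usp28 was the negative one, with r = -0.58 (permutation p = 0.00366, adjusted p = 0.0175), while its rho of -0.33 did not pass (permutation p = 0.124).

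The relation was also computed within each drug group, and the difference between the groups was not tested. Among 15 doxorubicin libraries no member passed by r (1.47% of all genes) or by both measures (0.854%), where Parp1 had r = 0.67 (permutation p = 0.00582, adjusted p = 0.107) and Xrcc6 r = 0.48. Msh6 had r = 0.21 in those libraries and Rad54l r = 0.30. Among 8 untreated libraries 7 members passed by r in an exact permutation test (2.54% of all genes) and 2, Parp1 and Rad54l, by both measures (0.653%). Parp1 had r = 0.97 there, Lig1 0.97, Msh6 0.95, Tdp1 0.93, Xrcc6 0.90, Rad54l 0.89 and Brip1 0.89. The 2 libraries farthest from the median proliferation level were the fasted knockout and the untreated wild type refed for 2 h. Without them 5 members passed by r (17.3% of all genes) and the same number by both measures (13.1%), with r at 0.82 for Parp1, 0.77 for Xrcc6, 0.69 for Chek2, 0.63 for Tdp1 and 0.57 for Lig1. Msh6 (0.53), Brca1 (0.54), Rad54l (0.43), Xrcc1 (0.54), Xpc (0.46) and Usp28 (-0.54) no longer passed. The r of Msh6 (0.71 with all 23) and Rad54l (0.60) moved most, while those of Xrcc1 (0.55) and Usp28 (-0.58) were nearly as large without the 2 libraries. Within the drug groups neither Xrcc1 nor Usp28 passed. For Usp28 r was 0.04 with doxorubicin and -0.47 without drug, and for Xrcc1 it was 0.34 and 0.15.

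**Figure D4:**
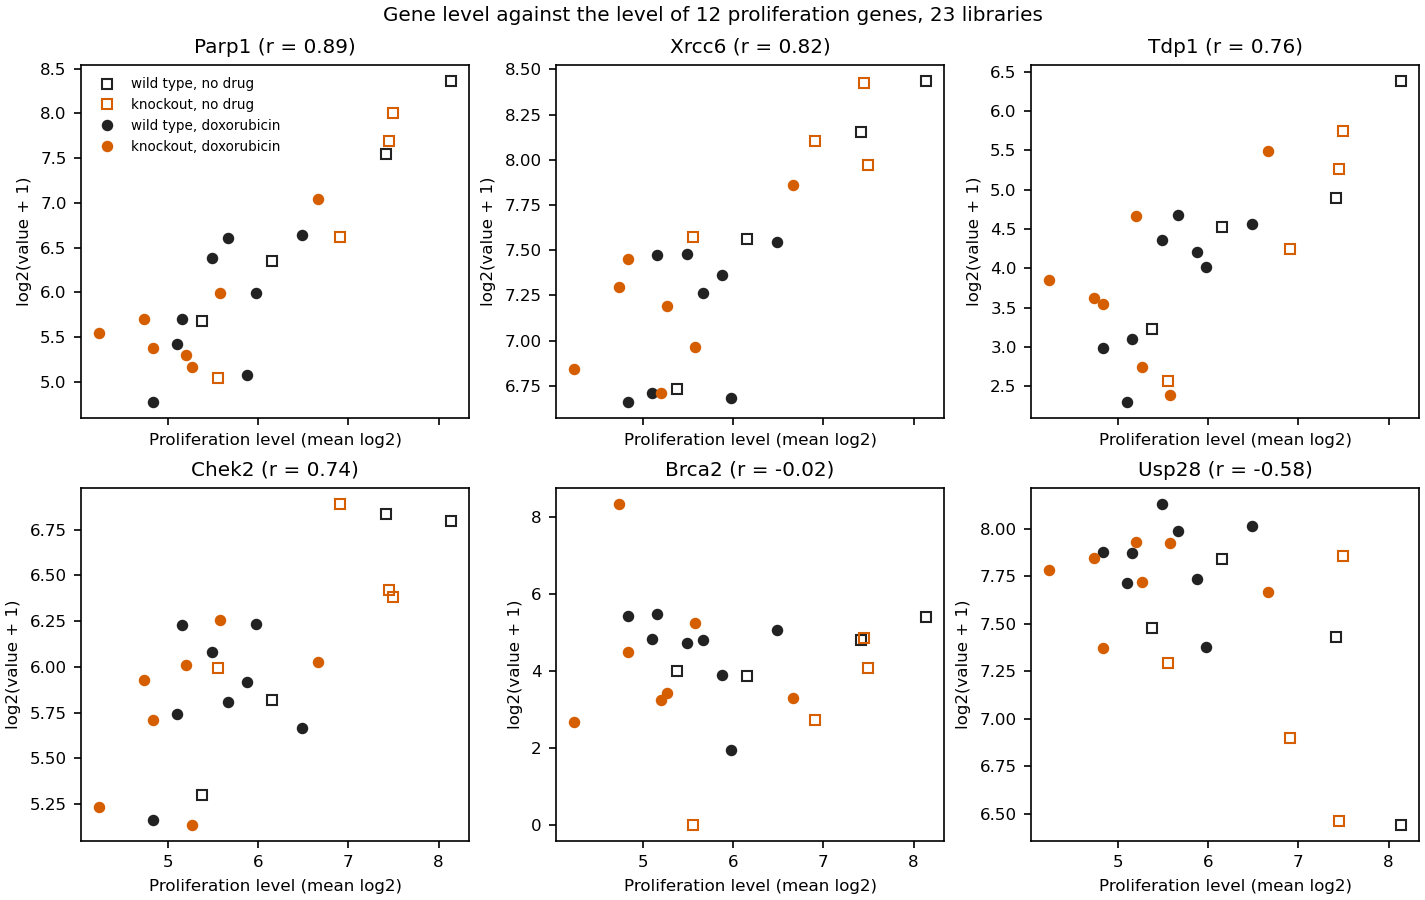
Log2(value + 1) of 6 genes against the mean log2 level of 12 proliferation genes, 1 point per library (squares, no drug; circles, doxorubicin; orange, knockout). Parp1 rises with the proliferation level (r = 0.89), Brca2 shows no trend (r = -0.02) and the low points of Usp28 (r = -0.58) are the 2 untreated libraries refed for 2 h.

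Repair genes outside the 42 were counted from a separate list of 87, of which 75 were tested. After 6 h of refeeding 7 of them fell and 1 rose, beside 7.02% of all genes called (3.46% fell and 3.56% rose). Among them Top2b, the topoisomerase II of non-dividing cells, had a log2 difference of -0.84 ± 0.17 (limma, adjusted p = 0.0132). It stood at 952 and 1174 in fasted mice and at 639 and 542 after 6 h. The values of 1174 (knockout) and 639 (wild type) come from the libraries with pancreatic transcripts. Results of the 75 without those libraries are not reported here.

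At 12 h after doxorubicin in ad libitum mice 2 of the 75 rose and 2 fell, beside 9.00% of all genes called (4.21% fell). The share of the 75 was thus no higher than that of all genes. Wee1, the kinase that holds cells before mitosis, stood at 220 and 227 without drug and at 672 and 687 at 12 h. The log2 difference was 1.6 ± 0.40 (limma, adjusted p = 0.0205), and at 24 h Wee1 did not pass. Untreated ad libitum mice were taken at 0 h only, so the drug and the hours after 0 h cannot be told apart here. Rbbp8, which starts end resection, rose by 1.09 ± 0.27 on the log2 scale (adjusted p = 0.019). Top2a, the doxorubicin target of dividing cells, had a difference of -2.21 ± 0.53 (adjusted p = 0.0172), and Ung, which removes uracil from DNA, went from 31.6 and 37.7 to 0 in both libraries (adjusted p = 0.0315). At 24 h 1 of the 75 passed, beside 3.11% of all genes. It was Parp3, which rose from 57.5 and 64.4 to 221 and 278, a log2 difference of 2.01 ± 0.36 (limma, adjusted p = 0.00775).

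At 6 h none of the 75 passed by limma, beside 1.34% of all genes. By limma 7 had an unadjusted p under 0.05, beside 14.8% of all genes, and none passed by edgeR and 1 by DESeq2. None passed either in the other 13 comparisons, with 2 to 11 at an unadjusted p under 0.05, none by edgeR and at most 2 by DESeq2. The median log2 difference of the 75 after the drug in ad libitum mice was -0.10 at 6 h, -0.11 at 12 h and -0.07 at 24 h.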

How the data were processed

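RNA-seq libraries of whole tissue were made from poly-A selected RNA without strand information, per the labels' protocols. Trim Galore, STAR, DESeq2 and mm10 are named in the submitters' processing notes. Their versions, the counting tool and any gene filter are not given in the sources used here. The deposited signal values are read counts per gene that the authors divided by 1 factor per library: 100% lay within 0.01 of a whole multiple of 1 read, which gave the reads back. All mapped to a gene name.

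Values were taken as log2(value + 1), which understates the fold of low genes, and fitted with limma 3.58.1 (mean-variance trend, R 4.3.3) over 11939 genes, with 12 conditions and genotype as terms. Prefasting was tested in 7 pairs, and the genotype-by-drug difference as an interaction. Tests were two-sided, adjusted by Benjamini-Hochberg over every tested gene, with 0.05 as the threshold. The fits were checked on simulated data. Alternatives were edgeR 4.0.16 and DESeq2 1.42.0 on recovered reads, other pseudocounts, filters and scalings, array weights, and fits without single libraries, without the 4 of conflicting title, the 3 with almost no Y-linked reads or the 2 with pancreatic transcripts.

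Correlations used 100000 permutations (all orders for 8 libraries) on every tested gene, so that p was adjusted over all genes and not, as first planned, over the members. Exon overlaps are from GENCODE M21 (mm10), upstream sequences from RefSeq (GRCm38.p6).

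The members, lists and alternatives were chosen with earlier results of these data known, and the E2F letters after a narrower set had been searched. Members past the threshold in any comparison and a chosen set of 16 were described, with 8 reference genes and up to 6 other repair genes per comparison. Rad54l, Trp53bp1 and Usp28 belong to both. Some other repair genes are not reported here by name. Other members named in a count or range were chosen after their values were seen.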

Additional observations from a re-analysis of the deposited data

How the results depend on the processing

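No paired analysis was possible because the replicate number is 1 in all libraries (1 library per group) and so gives no block. The pairs used for prefasting and genotype are matched on condition instead. No direction reversed in 145 values of named members under other settings or in 299 without single libraries.

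The count of members called changed as follows. At 2 h of refeeding (1 called) it was 0 without the 3 libraries with almost no Y-linked reads, 0 without the 2 with pancreatic transcripts, and 0 to 1 without single libraries. At 6 h of refeeding (3) it was 1 with no filter, 1 with quantile normalization, 1 with edgeR, 2 with TMM factors, 2 without the 4 libraries of conflicting title, 5 with DESeq2, 0 with array weights, 0 without either set of libraries and 0 to 4 without single libraries. For doxorubicin in ad libitum mice it was 1 at 6 h with array weights (0), and at 12 h (2) 1 with no filter, quantile normalization or edgeR, 3 with DESeq2, 4 with array weights, 0 without those 3 libraries and 0 to 2 without single ones. At 24 h (0) it was 1 with DESeq2 and 3 with array weights. In prefasted mice at 2 h (0) it was 1 with quantile normalization, DESeq2 or array weights, and over both times (0) 1 with a pseudocount of 0.5, quantile normalization, TMM factors, edgeR or DESeq2, with 0 to 1 without single libraries in both. For genotype (0) it was 1 with DESeq2 and 0 to 1 without single libraries. The cause was not tested. Of the tested members, Rad54l, Brca2, Palb2 and Chek1 each had 1 library at 0 reads, where a value carries little precision. Calls over all genes ranged over the other settings from 0 to 1395 at 6 h of refeeding (838 by limma), from 5 to 609, 102 to 2277 and 17 to 1537 at 6, 12 and 24 h of doxorubicin in ad libitum mice (160, 1074 and 371), from 1 to 383 over both prefasted times (75) and from 1 to 317 for genotype (69). For fasting (41) and 2 h of refeeding (30) they ranged from 0 to 148 and from 2 to 146. For the drug in prefasted mice they ranged from 3 to 151 at 2 h (4) and from 0 to 159 at 6 h (0). For time after the drug they ranged from 0 to 46 in ad libitum mice (0) and from 2 to 144 in prefasted mice (11). For prefasting they ranged from 0 to 21 over all pairs (0), 0 to 209 early (1), 0 to 12 late (0) and 0 to 23 for the difference of these (0), and for genotype by drug from 0 to 40 (0). Where 1 library was left on a side, it was assumed to vary like the other groups.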

Other observations

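Brca2, a mediator of homologous recombination, stood at 321 normalized reads (396 reads) in the knockout library of prefasted mice 24 h after doxorubicin and at 0 to 43.7 in the other 22 libraries. Its wild-type partner stood at 25.3. The same library held the highest values of Brip1, the helicase partner of Brca1, at 134 against 16.7 to 97.3 elsewhere, and of Tdp2, at 2998 against 872 to 2482. This library was singled out after its values were seen, it has no replicate, and the values were not tested.

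Lig3 had its 2 highest values in the untreated libraries refed for 6 h (259 and 328), and the 15 doxorubicin libraries ranged from 90.2 to 214.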
